A study of Mus musculus with 24 samples.

Results

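The transcripts described here belong to 10 genes that prepare DNA replication origins in G1 or act in S phase, *Mcm2*, *Mcm3*, *Mcm4*, *Mcm5*, *Mcm6*, *Mcm7*, *Pcna*, *Cdt1*, *Gmnn* and *Rrm2*. They were selected by gene symbol for their roles, though with earlier results of these data known, and are 10 of 54658 genes in the expression table. Their levels were followed in 24 RNA libraries of mouse dorsal telencephalon, the tissue that forms the cerebral cortex. Mutant embryos were Cep135-/-, homozygous in every cell for a germline null deletion made by CRISPR/Cas9 in B6.CBA zygotes, and control embryos were Cep135+/+. *Cep135* encodes a centriole protein. Neither genotype had a drug treatment. Cortices were taken at E11.5 and at E14.5 (days of embryonic development), with 3 mutant and 3 control embryos at each age. Cells of E14.5 cortices were dissociated with papain and grown in suspension as incipient neurospheres with EGF and FGF2 for 12 or 24 hours. This gave 6 libraries at each time, whose titles carry the same sample numbers as the 6 E14.5 cortices. Shared numbers were read as shared embryos, and on that reading the 24 libraries represent 12 embryos.

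Replication origins are licensed in G1. The origin recognition complex, CDC6 and CDT1 load the MCM2 to MCM7 proteins onto DNA as a ring-shaped complex, which later becomes the motor of the replicative helicase. Geminin, the product of *Gmnn*, binds CDT1 in S phase and G2 and blocks further loading, so that each stretch of DNA is copied once per cycle. In S phase, *Pcna* encodes the sliding clamp that tethers DNA polymerases, and *Rrm2* the regulatory subunit of ribonucleotide reductase, which makes deoxynucleotides. These genes are known as E2F targets that are transcribed around the G1/S transition. In the embryonic cortex, progenitors of the ventricular and subventricular zones divide while their neuronal progeny leave the cycle, so transcripts of this kind are widely used as marks of cycling cells.

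Positions were taken from GENCODE vM21 on GRCm38, and each gene is protein coding. The helicase genes were *Mcm2* (ENSMUSG00000002870, chromosome 6, 88883474 to 88898780, minus strand), *Mcm3* (ENSMUSG00000041859, chromosome 1, 20802968 to 20820312, minus strand), *Mcm4* (ENSMUSG00000022673, chromosome 16, 15623897 to 15637400, minus strand), *Mcm5* (ENSMUSG00000005410, chromosome 8, 75109569 to 75128439, plus strand), *Mcm6* (ENSMUSG00000026355, chromosome 1, 128331590 to 128359664, minus strand) and *Mcm7* (ENSMUSG00000029730, chromosome 5, 138164583 to 138172422, minus strand). The loading factor and its inhibitor were *Cdt1* (ENSMUSG00000006585, chromosome 8, 122568015 to 122573554, plus strand) and *Gmnn* (ENSMUSG00000006715, chromosome 13, 24751845 to 24761923, minus strand). The clamp and the reductase subunit were *Pcna* (ENSMUSG00000027342, chromosome 2, 132249162 to 132253314, minus strand) and *Rrm2* (ENSMUSG00000020649, chromosome 12, 24708241 to 24714146, plus strand). *Mcm7* shares 64 exonic bases with *Cops6* and 321 with *Ap4m1*, which lie on the other strand, and carries the miRNA genes *Mir25*, *Mir93* and *Mir106b* on its own strand. Reads were counted by strand, so *Cops6* and *Ap4m1* were counted apart from *Mcm7*. *Cdt1* overlaps *Gm20388*, which was at 0 in every library. *Pcna* has the processed pseudogenes *Pcna-ps1* and *Pcna-ps2*. *Pcna-ps1* was at 0 in every library and *Pcna-ps2* reached 15.1 normalized reads at most, so how reads were split between near-identical copies remained uncertain for *Pcna*.

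Promoter windows of 300 bases, from 250 bases before to 50 after the transcription start, were taken from RefSeq (GRCm38.p6) and matched 8 of the 10 genes, *Mcm7* with 2 windows. *Mcm4* and *Gmnn* had no entry. Both strands were searched for E2F sites in the form TTTCGCG, in the form TTTGGCG and in the form TTCCCGC, for the CCAAT box, for the CHR element with the letters TTTGAA or else TTCGAA, and for the E-box, which reads CACGTG. Windows of *Mcm3*, *Mcm5*, *Mcm6*, *Mcm7* and *Cdt1* held at least 1 of the E2F forms, as did 6.72% of all 32851 promoter windows. TTTCGCG was present in 4 of the genes (*Mcm5*, *Mcm6*, *Mcm7* and *Cdt1*) and in 0.849% of all windows. TTTGGCG was present in 4 (*Mcm3*, *Mcm5*, *Mcm6* and *Cdt1*) and in 1.56% of all windows, and TTCCCGC in 3 (*Mcm3*, *Mcm7* and *Cdt1*) and in 4.6%. CCAAT was found in 7 genes, all of those with a window but *Cdt1*, and in 37.4% of all windows. The CHR letters were found in *Mcm2* and *Mcm7* and in 19.2% of all windows, and the E-box in none of the 8 genes and in 7.15% of all windows.

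The windows of *Mcm5* (chr8:75109259-75109558, plus strand), *Mcm6* (chr1:128359656-128359955, minus strand) and *Cdt1* (chr8:122567765-122568064, plus strand) are shown because each held TTTCGCG together with TTTGGCG, and that of *Rrm2* (chr12:24708004-24708303, plus strand) because its transcript differed most between the ages. Sequences run 5′ to 3′ along the gene, with the E2F forms and CCAAT of either strand in capitals. In *Mcm5* and *Mcm6* the sites of these forms overlapped by 2 bases, on opposite strands. They lay 153 to 142 bases before the start in *Mcm5* and 110 to 99 bases before it in *Mcm6*, counted from the RefSeq start of the window, which differs from the GENCODE start given above for *Mcm5*, *Mcm6* and *Rrm2*.
Mcm5: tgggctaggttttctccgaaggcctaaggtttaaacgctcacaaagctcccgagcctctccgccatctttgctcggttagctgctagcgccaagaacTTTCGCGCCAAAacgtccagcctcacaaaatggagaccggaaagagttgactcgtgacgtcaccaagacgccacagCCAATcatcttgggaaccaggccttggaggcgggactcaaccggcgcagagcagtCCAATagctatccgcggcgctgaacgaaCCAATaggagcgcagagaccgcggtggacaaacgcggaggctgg
Mcm6: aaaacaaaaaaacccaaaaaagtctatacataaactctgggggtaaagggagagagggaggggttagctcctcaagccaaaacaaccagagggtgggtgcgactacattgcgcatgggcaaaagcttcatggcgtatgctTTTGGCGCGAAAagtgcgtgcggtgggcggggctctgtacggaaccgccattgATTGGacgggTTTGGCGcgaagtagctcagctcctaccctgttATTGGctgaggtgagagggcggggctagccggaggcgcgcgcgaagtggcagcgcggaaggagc
Cdt1: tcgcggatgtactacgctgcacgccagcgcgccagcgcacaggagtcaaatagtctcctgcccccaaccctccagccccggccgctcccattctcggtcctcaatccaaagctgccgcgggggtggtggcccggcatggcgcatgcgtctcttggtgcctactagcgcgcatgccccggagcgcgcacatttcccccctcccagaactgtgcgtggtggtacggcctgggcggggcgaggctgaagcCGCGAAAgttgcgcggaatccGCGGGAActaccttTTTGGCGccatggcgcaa
Rrm2: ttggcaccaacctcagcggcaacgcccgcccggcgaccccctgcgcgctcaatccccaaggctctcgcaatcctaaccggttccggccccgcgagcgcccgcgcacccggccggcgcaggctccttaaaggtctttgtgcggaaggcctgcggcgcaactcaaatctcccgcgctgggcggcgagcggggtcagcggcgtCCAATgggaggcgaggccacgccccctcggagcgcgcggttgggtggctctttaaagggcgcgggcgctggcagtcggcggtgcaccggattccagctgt
These letter matches describe the windows and are not evidence of binding.

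Values are normalized read counts, the reads on a gene divided by 1 size factor per library. Libraries were read at the 3′ ends of transcripts and held 4732781 to 11645213 reads on genes, with *Gm42418*, a gene with ribosomal RNA sequence, taking 6.11% to 34.8% of the normalized count. The 24-hour mutant libraries were deeper than the 24-hour controls (7903426 to 11645213 against 4732781 to 5709443 reads) and held more *Gm42418* (20.5% to 23.0% against 6.26% to 13.9%). Markers of the dorsal telencephalon were present in every group, with group means of 83.3 to 274 normalized reads for *Emx1* and 1276 to 2435 for *Lhx2*. Ventral telencephalon markers were present as well. Over all libraries they summed to 1628 to 4028, and the dorsal markers to 3915 to 7559. *Cep135* itself did not separate the genotypes at the 3′ end of its transcript, where reads do not test the deletion. It measured 246, 336 and 329 in E11.5 mutants and 293, 375 and 318 in controls, 224, 173 and 283 and 171, 176 and 271 at E14.5, 260.3, 213 and 262 and 291, 336 and 201 at 12 hours and 193, 265 and 295 and 217, 276 and 185 at 24 hours. *Cdkn1a*, a cell cycle inhibitor named by the study, was higher in mutants in each of the 4 settings, without overlap, and passed the threshold in 24-hour cultures (log2 fold change 1.02, adjusted p = 0.0109, limma) and over the 12 cortices (0.99, adjusted p = 0.0152, limma). *Xist* and Y-linked transcripts marked all 3 E14.5 controls as male and mutants 1 and 2 as female, so genotype and sex were partly confounded in E14.5 cortices and in all cultures.

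The highest levels of all 10 genes were in E11.5 cortices, and for each of them the E11.5 mutant group had the highest mean and the E11.5 control group the next, with overlapping ranges. Both E11.5 groups lay above every later library. Below them the groups lay close together. For *Mcm3*, *Mcm6*, *Mcm7*, *Mcm2*, *Pcna*, *Cdt1* and *Rrm2* each of the later groups overlapped with its neighbour in the order. The exceptions were *Mcm4*, whose E14.5 controls stood apart from the 12-hour controls, *Mcm5*, whose E14.5 mutants stood apart from the E14.5 controls, and *Gmnn*, whose 24-hour mutants stood apart from the 24-hour controls. The reads behind these values were fewest for *Gmnn*, with 20 to 505 per library, for which counting error alone is 22.4% at the lowest. *Mcm7* was the best covered, with 1328 to 8159 reads and a counting error of at most 2.74%.

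**Figure D1:**
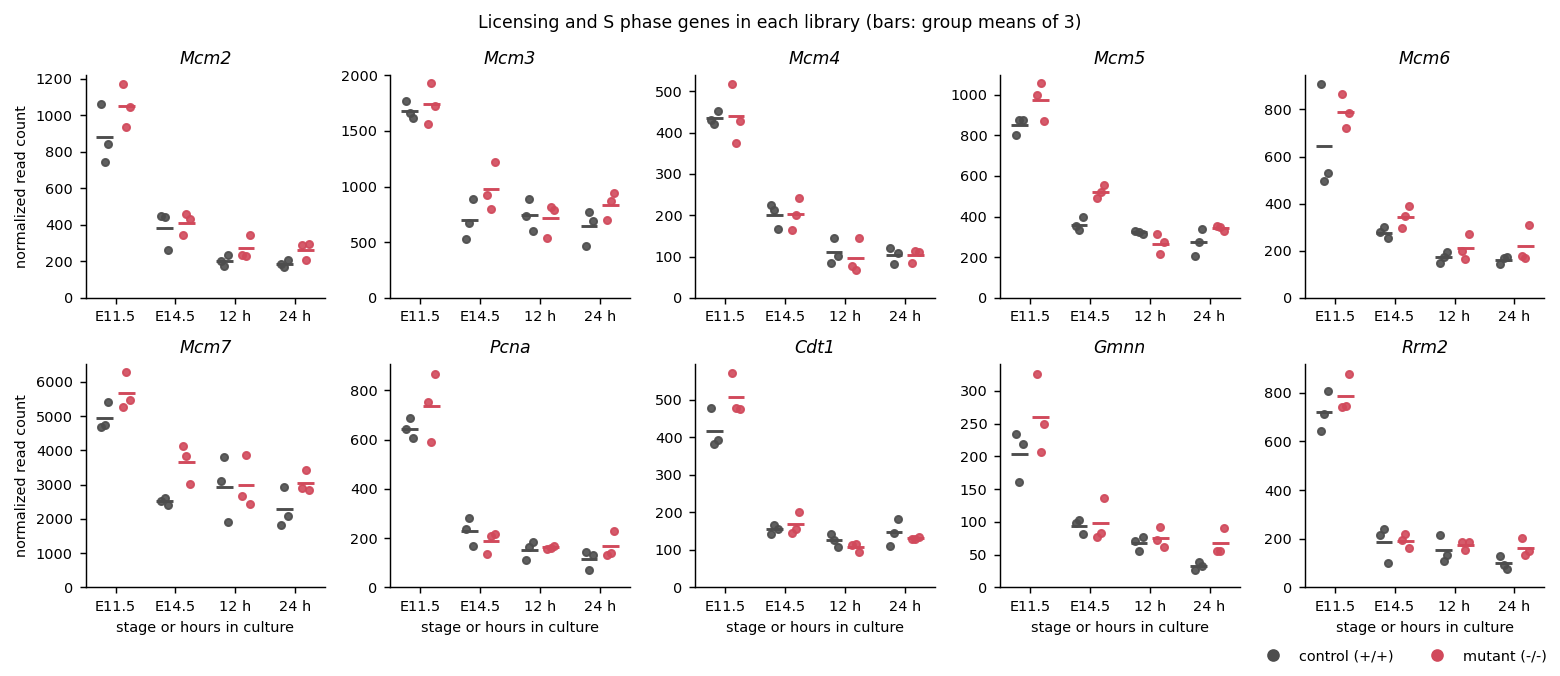
Normalized read count (vertical axis, from 0) of each of the 10 genes in E11.5 and E14.5 cortices and in 12-hour and 24-hour cultures (horizontal axis), with 1 point per library, controls in grey and mutants in red, and a bar at the mean of 3. In each panel all 6 E11.5 libraries lie above the 18 libraries of E14.5 embryos.

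All 10 genes fell between E11.5 and E14.5. The libraries of the 2 ages did not overlap for any of them, in a comparison in which 29.3% of 13650 genes fell, 23.8% rose and 14.9% lay lower without overlap. The test was limma on log2(value + 1) with genotype as a term, with 6 cortices of each age, and the ages share no embryos. All E14.5 titles carry 1 prefix and the E11.5 titles 2 others, so age and prefix cannot be told apart. The median log2 fold change of the 10 genes was -1.22, and that of all genes tested -0.077.

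*Rrm2*, the reductase subunit, fell the furthest of the 10. It measured 641, 713 and 808 in E11.5 controls and 742, 745 and 877 in E11.5 mutants, against 214, 242 and 99.4 in E14.5 controls and 194, 219.7 and 161 in E14.5 mutants. Its log2 fold change was -2.05 (SE 0.17, adjusted p = 6.66e-08, limma), a level of 0.242 times that at E11.5. *Pcna*, the sliding clamp, measured 642, 687 and 607 in E11.5 controls, 754, 592 and 867 in E11.5 mutants, 239, 282 and 168 in E14.5 controls and 137, 209.8 and 217 in E14.5 mutants, with a log2 fold change of -1.75 (SE 0.15, adjusted p = 1.19e-07). For both genes the lowest E11.5 library lay well above the highest E14.5 library, at 641 against 242 for *Rrm2* and 592 against 282 for *Pcna*.

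Of the licensing factors, *Cdt1* measured 479, 381 and 394 in E11.5 controls, 572, 477 and 477 in E11.5 mutants, 144, 165 and 157 in E14.5 controls and 146, 157 and 202 in E14.5 mutants (log2 fold change -1.51, SE 0.11, adjusted p = 9.52e-09). Its inhibitor *Gmnn* measured 234, 161 and 218 and 326, 207 and 249 at E11.5 and 98.8, 102 and 81.1 and 76.8, 82.8 and 136 at E14.5, controls first (log2 fold change -1.26, SE 0.16, adjusted p = 8.01e-06). The loading factor and its inhibitor therefore fell together, with 95% intervals that overlapped (-1.73 to -1.28 and -1.60 to -0.91).

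The 6 subunits of the helicase ring all fell. *Mcm2* went from 1064, 747 and 841 in E11.5 controls and 1174, 937 and 1048 in E11.5 mutants to 447, 441 and 264 in E14.5 controls and 344, 459 and 435 in E14.5 mutants (log2 fold change -1.29, SE 0.14). *Mcm6* measured 909.9, 495 and 529 and 864, 722 and 785 at E11.5 and 280.0, 299 and 253 and 296, 347 and 389.9 at E14.5, controls first (-1.18, SE 0.13). *Mcm4* measured 431, 421 and 452 and 518, 375 and 427 at E11.5 and 225, 212 and 167 and 165, 199.8 and 243 at E14.5 (-1.12, SE 0.11). In these 3 genes the genotypes overlapped at both ages and the ages did not. *Mcm3* measured 1771, 1660.0 and 1614 and 1565, 1933 and 1721 at E11.5 and 529, 671 and 887 and 924, 799 and 1222 at E14.5 (-1.07, SE 0.13), where the highest E14.5 library, mutant 6, came closest to the E11.5 range. *Mcm5* measured 800.1, 873 and 877 and 999, 1056 and 869.7 at E11.5 and 353, 333 and 396 and 492, 522 and 554 at E14.5 (-1.07, SE 0.090). Adjusted p-values of these 5 genes were from 7.64e-08 to 6.22e-06 (limma). *Mcm7* fell the least, from 4693, 4742 and 5399.6 in E11.5 controls and 5263, 6289.7 and 5463 in E11.5 mutants to 2529, 2625 and 2417 in E14.5 controls and 4113, 3823 and 3015 in E14.5 mutants (log2 fold change -0.81, SE 0.096, adjusted p = 3.49e-06). Its 95% interval, -1.01 to -0.60, overlapped with those of the other 5 subunits, with that of *Mcm2* (-1.58 to -1.003) at its end alone. With control libraries alone, and with mutant libraries alone, all 10 genes also fell past the threshold.

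**Figure D2:**
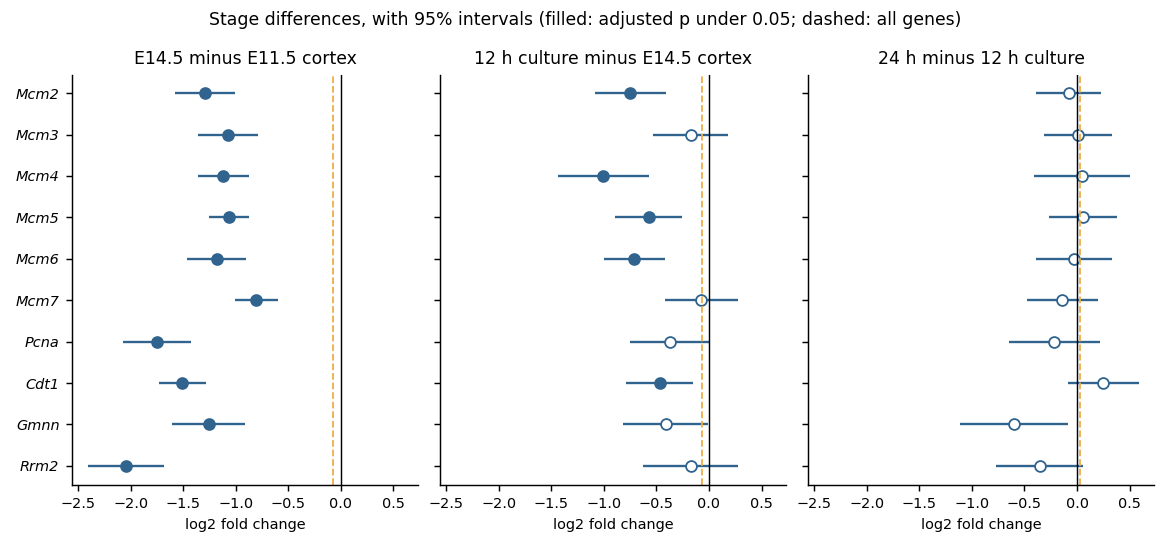
Log2 fold change (horizontal axis) of each of the 10 genes for E14.5 minus E11.5 cortices, for 12-hour cultures minus E14.5 cortices and for 24-hour minus 12-hour cultures, with 95% intervals from limma. Filled points passed an adjusted p of 0.05, and the dashed line is the median of all genes tested; 10, 5 and 0 of the points are filled.

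Most other genes of the replication machinery fell as well. Of 77 other genes in 9 lists of replication functions, 72 fell and 1 rose between E11.5 and E14.5, with a median log2 fold change of -0.91. The largest falls were of *Orc1*, a subunit of the origin recognition complex (-1.68, SE 0.23, adjusted p = 1.70e-05, limma), *Asf1b*, a histone chaperone (-1.67, SE 0.18, adjusted p = 1.005e-06), and *Ccne1*, the G1/S cyclin E1 (-1.63, SE 0.13, adjusted p = 3.48e-08). The gene that rose was *Rb1*, which encodes the retinoblastoma protein that restrains E2F, from 177 ± 22.3 to 242 ± 32.5 (SD, n = 6; log2 fold change 0.45, adjusted p = 0.00349). *Orc3*, *Orc4*, *Pole4* and *Rpa3* did not pass.

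By role, 13 of 13 genes of helicase activation fell (median log2 fold change -0.92), 10 of 11 of polymerases and primase (-0.90) and 8 of 8 of clamp loading (-0.86). All 8 genes of deoxynucleotide supply fell (-0.93), as did all 9 of lagging strand processing and chromatin assembly (-0.99), both *Mcm8* and *Mcm9*, relatives outside the hexamer (-1.04), and 6 of 7 genes of single-strand binding and fork protection (-0.93). Of the E2F factors and G1/S regulators, 10 of 11 fell (median -0.87). The median nearest to 0 of the 9 lists was that of origin recognition and helicase loading, -0.40, where 6 of 8 genes fell.

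**Figure D3:**
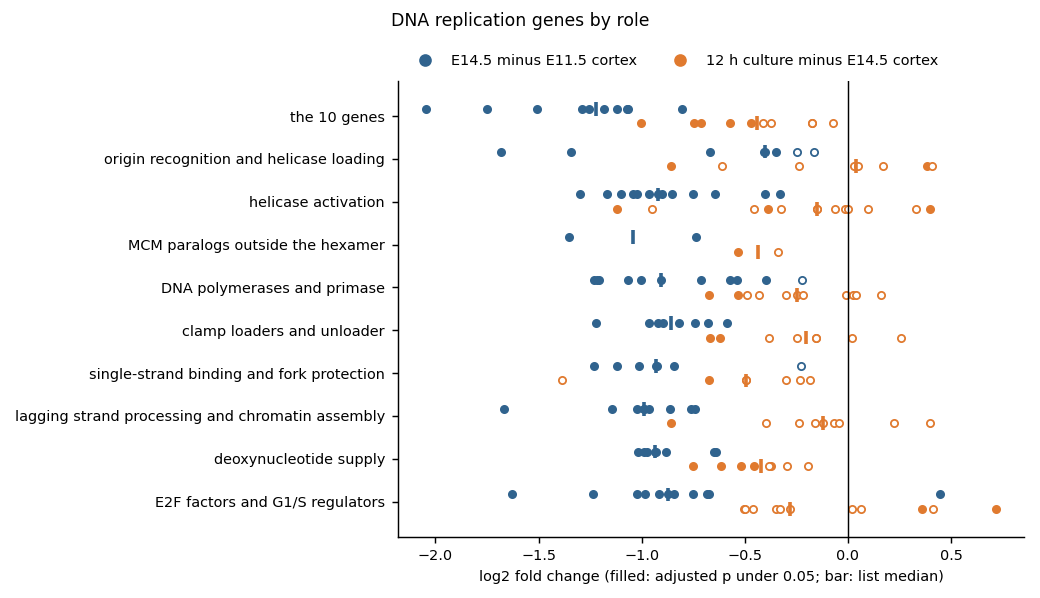
Log2 fold change (horizontal axis) of the 10 genes and of 77 other replication genes by role (rows), for E14.5 against E11.5 cortices in blue and 12-hour cultures against E14.5 cortices in orange. Each point is a gene, filled where its adjusted p is under 0.05, with a bar at the median of the list; in blue all points but that of *Rb1* lie below 0, and the 10 genes have the lowest blue median of the 10 rows, -1.22.

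Cell type markers differed between the ages as well. Of 20 G2 and M phase genes 20 fell (median -0.97 on the log2 scale). All 12 postmitotic neuron markers rose, with a summed level of 12061 to 17556 in E11.5 controls, 11776 to 13341 in E11.5 mutants, 50185 to 53909.9 in E14.5 controls and 41561 to 42950.3 in E14.5 mutants. Of 10 apical progenitor markers 8 fell and 2 rose. In bulk tissue, fewer cycling cells and less RNA of these genes per cycling cell cannot be told apart.

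After 12 hours in culture, 4 helicase genes and *Cdt1* were lower than in the E14.5 cortices the cells came from, and the other 5 genes did not pass the threshold. In this comparison 16.1% of 13601 genes fell, 14.1% rose and 7.76% lay lower without overlap. *Mcm4* fell the furthest, from 225, 212 and 167 in control and 165, 199.8 and 243 in mutant cortices to 84.9, 144 and 102 and 78.0, 66.3 and 146 in the cultures (log2 fold change -1.004, SE 0.20, adjusted p = 0.00163, limma with genotype as a term). The libraries of *Mcm4* did not overlap. *Mcm2* fell from 447, 441 and 264 and 344, 459 and 435 to 203, 176 and 234 and 236, 230.4 and 346 (-0.75, SE 0.16, adjusted p = 0.00238), and *Mcm6* from 280.0, 299 and 253 and 296, 347 and 389.9 to 146, 175 and 193 and 198, 165 and 269.6 (-0.71, SE 0.14, adjusted p = 0.00119). Both overlapped between cultures and cortices: the culture of mutant 6 lay above the cortex of control 5 for both genes and, for *Mcm2*, also above that of mutant 1.

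*Mcm5* fell without overlap, though with 329 in the highest culture and 333 in the lowest cortex (log2 fold change -0.57, SE 0.15, adjusted p = 0.00962). Its values were 353, 333 and 396 in control cortices and 329, 325 and 313 in control cultures, and 492, 522 and 554 in mutant cortices and 313, 215 and 272 in mutant cultures. The libraries of each genotype alone gave a log2 fold change of -0.98 in mutants (adjusted p = 0.00867, limma) and -0.16 in controls (adjusted p = 0.521) and the difference itself did not pass when tested as an interaction (-0.83, SE 0.23, adjusted p = 0.793). *Cdt1* measured 143, 127 and 107 in control and 113, 116 and 94.1 in mutant cultures, a log2 fold change of -0.47 (SE 0.15, adjusted p = 0.0251, limma). Its libraries did not overlap, though barely, with 143.1 in the highest culture and 143.5 in the lowest cortex. With the embryo as a replicate block *Cdt1* no longer passed (adjusted p = 0.0536), nor without E14.5 control 4 (0.0522), E14.5 mutant 2 (0.0505), E14.5 mutant 6 (0.0641) or 12-hour control 5 (0.0501).

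The genes that did not pass were *Mcm7* (log2 fold change -0.072, 95% interval -0.42 to 0.27), *Mcm3* (-0.18, -0.53 to 0.18), *Rrm2* (-0.18, -0.63 to 0.28), *Pcna* (-0.37, -0.75 to 0.0023) and *Gmnn* (-0.41, -0.82 to -0.0059). *Mcm7* measured 3109.9, 3796 and 1896 in control and 2675, 3864 and 2440.0 in mutant cultures, with control 5 below every E14.5 cortex. *Mcm3* measured 738, 891 and 604 in control and 538, 812 and 788 in mutant cultures, all within the range of the cortices. *Rrm2* measured 216, 109 and 133 and 187, 155 and 187, and *Pcna* 113, 163 and 186 and 158, 159.9 and 169, controls first. *Gmnn* values in these cultures are given with those of 24 hours. The subunits of the helicase ring thus had changes in culture from -1.004 for *Mcm4* to -0.072 for *Mcm7*. The 95% intervals of these 2 extremes (-1.43 to -0.57 and -0.42 to 0.27) did not overlap. The genes were picked as the lowest and highest of the 6, and a difference between subunits was not tested. Without E14.5 mutant 1, *Pcna* passed (adjusted p = 0.0454).

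Of the 77 other replication genes, 17 fell and 4 rose in 12-hour cultures (limma; median log2 fold change -0.25, against -0.44 for the 10 genes and -0.063 for all genes). The largest falls were of *Gins2*, a subunit of the GINS complex of the active helicase (-1.12, adjusted p = 0.00837), *Cdc6*, the other helicase loading factor (-0.86, adjusted p = 0.00578), and *Chaf1b*, a subunit of chromatin assembly factor 1 (-0.86, adjusted p = 8.04e-04). *E2f1*, a transcriptional activator of G1/S genes, rose from 261 ± 45.4 to 431 ± 84.1 (SD, n = 6; log2 fold change 0.72, adjusted p = 0.00111, limma), without overlap. *Topbp1*, which activates the checkpoint kinase ATR, rose by 0.40 (adjusted p = 0.0202) and *Mcmbp*, which binds MCM proteins, by 0.38 (adjusted p = 0.00399). The E14.5 cortices enter both this comparison and that between the ages.

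Other lists also differed between cultures and cortices. Of 20 G2 and M phase genes 11 fell, and of 10 apical progenitor markers 7 fell and 1 rose. Postmitotic neuron markers had a median log2 fold change of -0.0020, with 1 of 12 higher and 1 lower. All tested markers of microglia (7 genes), endothelium (7) and meninges (6) fell: microglial markers summed to 440.0 to 507 in control and 826 to 999 in mutant cortices and to 18.8 to 44.0 and 6.31 to 16.6 in the cultures, where *Trem2* was at 0 in both genotypes. Erythroid markers rose (8 of 9). The part of these differences in the values of the 10 genes was not tested.

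Between 12 and 24 hours in culture none of the 10 genes passed the threshold, in a comparison in which limma called 0.15% of 13359 genes higher and 0.142% lower. At an unadjusted p under 0.05 there was 1 of the 10, *Gmnn*, whose level was 70.8, 56.4 and 76.7 in controls and 72.2, 91.5 and 61.8 in mutants at 12 hours and 27.3, 38.8 and 32.5 and 55.9, 55.7 and 90.8 at 24 hours (log2 fold change -0.60, 95% interval -1.11 to -0.088, adjusted p = 0.437). The 24-hour control libraries held 20, 23 and 26 reads of *Gmnn*. The changes of the 10 genes ranged from -0.60 to 0.25, with 4 above 0, and of the 77 other replication genes none passed, while 3 of 20 G2 and M phase genes fell (*Top2a*, *Kif11* and *Nusap1*). DESeq2 on whole reads and limma with the embryo as a replicate block also called none of the 10, while over all genes the block raised the count from 39 to 104. With 24-hour cultures in place of 12-hour cultures in the comparison with E14.5 cortices, *Gmnn* passed (log2 fold change -1.01, adjusted p = 0.00145), as did *Pcna* (-0.59, adjusted p = 0.0380), and *Cdt1* did not (-0.22, adjusted p = 0.200).

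None of the 10 genes passed the threshold of limma in any comparison of mutants with controls, and DESeq2 called *Mcm5* over the 12 cortices, as given below. Counts of E14.5 cortices were simulated with 3 libraries a side and the same dispersion (spread beyond counting error) for every gene. There limma recovered 10 of 200 genes changed by a fold of 1.5 and 146 of 200 changed by a fold of 2. The spread of each real gene was not simulated, so these shares do not give the recovery of the 10 genes. The cultures were not simulated. Called genes were 0.0149% of 13406 tested in E11.5 cortices, 0.0736% of 13583 in E14.5 cortices, 0% of 13389 in 12-hour cultures and 0.271% of 13300 in 24-hour cultures. In 12-hour cultures 650 genes had an unadjusted p under 0.05, and DESeq2 on whole reads called 9.

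In E11.5 cortices mutants had the higher mean for all 10 genes, with log2 fold changes from 0.0055 for *Mcm4* to 0.35 for *Mcm6* and a median of 0.20, against 0.017 for all genes tested. The direction of *Mcm4* turned under each of the 3 other scalings tried, TMM, quantile and library totals. None of the 10 stood apart between the genotypes, compared with 7.16% of all genes that lay higher in mutants without overlap and 6.11% lower. *Cdt1* measured 572, 477 and 477 in mutants and 479, 381 and 394 in controls (log2 fold change 0.28, SE 0.13, adjusted p = 0.676, limma), and its lowest mutants lay just under the highest control. *Mcm6* measured 864, 722 and 785 in mutants and 909.9, 495 and 529 in controls (0.35, SE 0.20, adjusted p = 0.713), where control 1 was above all mutants and the other controls were below them. Mutant 1 and control 1 carry another title prefix than the other 4 libraries. Within the first prefix mutants were higher for 8 of the 10 genes and within the second for 9. The descriptions of mutants 2 and 3 spell the second prefix in another way than those of controls 2 and 3, so that the second comparison may not be within 1 prefix.

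Of the cell type markers tested in the E11.5 cortices, limma called none of those counted here. Mutants were lower for 10 of 10 apical progenitor markers, 12 of 12 postmitotic neuron markers, 8 of 8 dorsal and 8 of 8 ventral telencephalon markers tested. They were higher for 6 of 6 markers of meninges, 6 of 7 of endothelium, 7 of 7 of choroid plexus and cortical hem and 7 of 7 of liver. The choroid plexus and liver lists share *Ttr*. Apical progenitor markers summed to 15874 to 17667 in mutants and 17541 to 20054 in controls, with overlap, and dorsal markers to 4563 to 5426 and 5676 to 6525, without overlap. Their part in the values of the 10 genes was not tested.

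In E14.5 cortices *Mcm5* and *Mcm7* were higher in all 3 mutants than in all 3 controls, where 7.02% of all genes lay higher without overlap and 6.71% lower. *Mcm5* measured 492, 522 and 554 in mutants and 353, 333 and 396 in controls (log2 fold change 0.54, SE 0.13, adjusted p = 0.324, limma). *Mcm7* measured 4113, 3823 and 3015 in mutants and 2529, 2625 and 2417 in controls (0.52, SE 0.14, adjusted p = 0.367). Their unadjusted p-values, 0.00184 and 0.00321, did not hold after adjustment over all genes. The male mutant 6 differed from the male controls by 0.62 for *Mcm5* and 0.26 for *Mcm7* on the log2 scale, and the female mutants by 0.49 and 0.65.

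*Mcm3* was also higher on average in E14.5 mutants (924, 799 and 1222 against 529, 671 and 887, log2 fold change 0.51, adjusted p = 0.512), with overlap, and *Mcm6* by 0.30 (adjusted p = 0.568). *Mcm2* and *Mcm4* lay near 0 (0.13, 95% interval -0.32 to 0.59, and 0.0040, -0.40 to 0.41; the sign of *Mcm4* turned with TMM scaling). The S phase genes and the licensing factors had intervals on both sides of 0: *Pcna* -0.29 (-0.79 to 0.21), *Rrm2* 0.14 (-0.49 to 0.77), *Cdt1* 0.10 (-0.27 to 0.48) and *Gmnn* 0.026 (-0.49 to 0.54; the sign turned with TMM scaling). The description of the mutant 6 cortex gives an age of E11.5 where its title gives E14.5. This library was the highest of the 3 mutants for *Mcm3*, *Mcm4*, *Mcm5*, *Mcm6*, *Cdt1*, *Gmnn* and *Pcna*. Its neuron markers summed to 41572, between those of the other E14.5 mutants, its choroid plexus and cortical hem markers to 1467 against 7063 and 8177 in the other mutants, and its liver markers to 742 against 6074 and 7399. The choroid plexus and liver lists share *Ttr*, and 2 of 11 liver markers averaged 10 or more in E14.5 mutants, so these sums are not separate measures. Mutants were lower than controls for 7 of 7 liver markers tested, none of them called by limma. Without mutant 6 the log2 fold changes were 0.49 for *Mcm5*, 0.65 for *Mcm7*, 0.34 for *Mcm3* and 0.21 for *Mcm6*, and those of *Mcm4*, *Cdt1* and *Gmnn* turned in sign to -0.14, -0.037 and -0.23, none of them passing the threshold of limma. All 10 genes still fell between the ages without it. *Pcna*, at 137, 209.8 and 217 in mutants and 239, 282 and 168 in controls, was the member with a lower mean in mutants. The median over the 10 genes was 0.13, and over all genes 0.013.

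**Figure D4:**
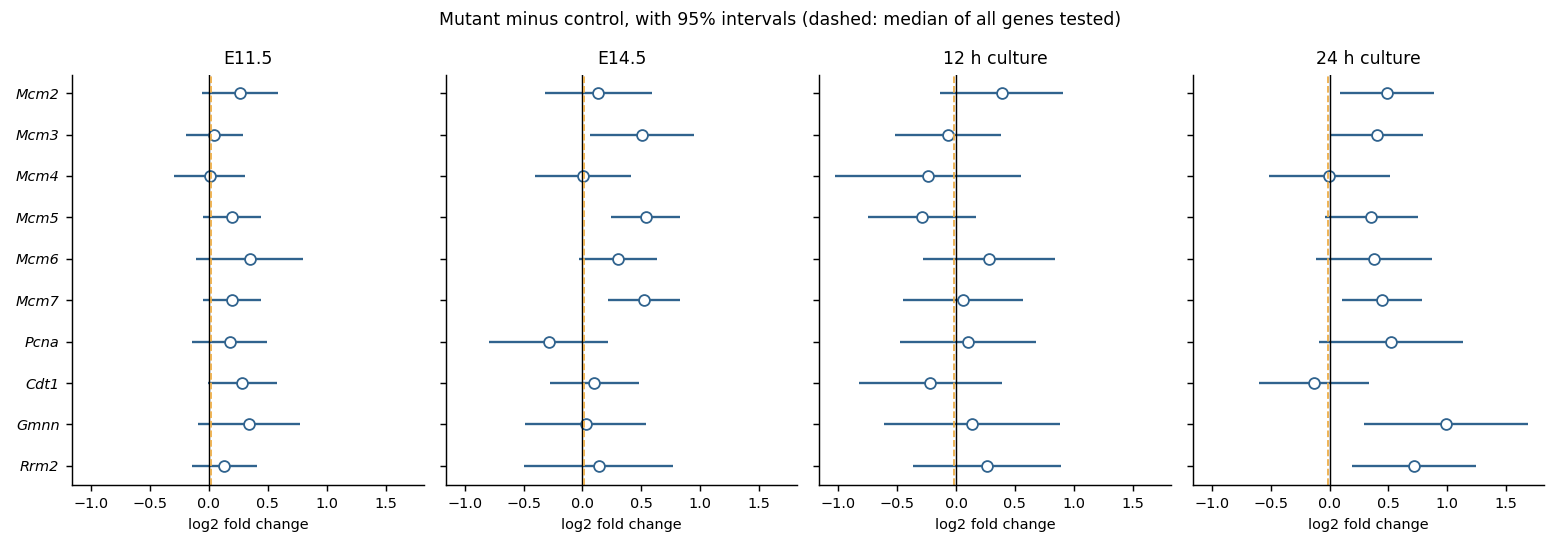
Log2 fold change, mutant minus control (horizontal axis), of the 10 genes in each setting, with 95% intervals from limma on 3 libraries a side. The dashed line is the median of all genes tested. Open points did not pass an adjusted p of 0.05, and all 40 are open. The intervals of *Mcm3*, *Mcm5* and *Mcm7* at E14.5 and of *Mcm2*, *Mcm3*, *Mcm7*, *Gmnn* and *Rrm2* at 24 hours lie above 0 before adjustment. Over all genes, 1236 of 13583 at E14.5 and 1414 of 13300 at 24 hours had an unadjusted p under 0.05 in either direction (limma).

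In 12-hour cultures the genotypes overlapped for all 10 genes. Mutants were higher for 6 of the 10 genes and lower for 4, with log2 fold changes from -0.29 for *Mcm5* to 0.39 for *Mcm2*, while 5.09% of all genes lay higher and 5.94% lower without overlap. *Mcm2* measured 236, 230.4 and 346 in mutants and 203, 176 and 234 in controls (adjusted p = 0.913, limma), and *Mcm5* 313, 215 and 272 in mutants and 329, 325 and 313 in controls (adjusted p = 0.913). Both overlapped by a single library pair, *Mcm2* through mutant 2 and control 5 and *Mcm5* through mutant 1 and control 5. Choroid plexus and cortical hem markers summed to 5300.2 to 16744 in mutant and 2464 to 4595 in control cultures, with *Wnt3a* at 0 in both. Liver markers, which share *Ttr* with this list, summed to 5523 to 15907 in mutant and 1943 to 5106 in control cultures. These sums are therefore not separate measures. Mutants were also lower for 9 of 9 erythroid and 11 of 12 postmitotic neuron markers and higher for 10 of 10 apical progenitor markers, none of them called by limma. The part of these cells in the values of the 10 genes was not tested.

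In 24-hour cultures *Gmnn*, *Rrm2* and *Mcm2* were higher in every mutant than in every control, where 7.15% of all genes lay higher and 9.06% lower without overlap. *Gmnn*, the licensing inhibitor, measured 55.9, 55.7 and 90.8 in mutants and 27.3, 38.8 and 32.5 in controls (log2 fold change 0.99, SE 0.33, adjusted p = 0.272, limma). *Rrm2* measured 204, 134 and 152 and 128, 94.4 and 76.3 (0.72, SE 0.25, adjusted p = 0.292), and *Mcm2* 287, 209.5 and 293 and 186, 167 and 205 (0.49, SE 0.19, adjusted p = 0.358). The separation was narrow for *Rrm2* (134 in the lowest mutant and 128 in the highest control) and *Mcm2* (209.5 and 205), and wider for *Gmnn* (55.7 and 38.8), which had the fewest reads. The male mutant 6 differed from the male controls by 1.45 for *Gmnn*, 0.64 for *Rrm2* and 0.66 for *Mcm2* on the log2 scale, and the female mutants by 0.76, 0.76 and 0.40.

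*Mcm7* (0.44, adjusted p = 0.318), *Pcna* (0.52, adjusted p = 0.559), *Mcm3* (0.41, adjusted p = 0.442), *Mcm6* (0.38, adjusted p = 0.60) and *Mcm5* (0.35, adjusted p = 0.531) had higher means in mutants with overlap. *Mcm7* measured 2898, 3421 and 2842 in mutants and 1813, 2946 and 2098 in controls, and *Pcna* 130.4, 141 and 229.6 and 145, 72.5 and 134. *Mcm3* measured 697, 875 and 942 and 464, 768 and 690.1, *Mcm6* 178, 169 and 307 and 142, 169 and 175 and *Mcm5* 353, 349 and 328 and 206, 276 and 339, mutants first. A single control lay above the lowest mutant for *Mcm3* and *Mcm7* (control 4) and for *Mcm5* and *Mcm6* (control 5), and 2 controls did for *Pcna*. *Cdt1* was at 129, 129.6 and 135 in mutants and 112, 147 and 183 in controls, inside the range of the controls, and *Mcm4* at 84.6, 113 and 111 in mutants and 122, 80.9 and 109 in controls (log2 fold change -0.0030, 95% interval -0.52 to 0.51), with a sign that turned under TMM scaling and library totals. The median of the 10 genes was 0.42, and of all genes -0.012. These mutant libraries were deeper and richer in *Gm42418* than their controls, as given above, and choroid plexus and cortical hem markers summed to 5723 to 17500.1 in mutants and 1998 to 4590.4 in controls, with *Kl* and *Wnt3a* at 0 in all 24-hour mutants. Liver markers, 1 of which, *Ttr*, is also in the choroid plexus list, summed to 5238 to 16646 and 775 to 3536, so these sums are not separate measures. Of the choroid plexus and cortical hem markers limma called 2 of 6 tested higher in mutants and 1 lower, and of the liver markers 3 of 7 tested higher. The part of depth and of these cells in the values was not tested.

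Over the 12 cortices, with age as a term, limma called 0.139% of 13650 genes and none of the 10, while 0.813% of all genes lay higher in mutants without overlap at both ages and 0.52% lower. *Mcm5* (0.37, SE 0.090, adjusted p = 0.196) and *Mcm7* (0.36, SE 0.096, adjusted p = 0.248) had the smallest p-values of the 10. DESeq2 on whole reads called *Mcm5* (0.34 on the log2 scale, adjusted p = 0.0424), among 98 genes in all, and edgeR did not (adjusted p = 0.251). None of the 10 passed a test of whether the genotype effect differed between ages (0% of 13650 genes called), between 12-hour cultures and cortices (0% of 13601) or between culture times (0% of 13359). Unadjusted p-values under 0.05 were 1070, 724 and 318 in these limma tests, 1 of the 10 genes in each, which was *Mcm5* in all 3, and with the embryo as a replicate block limma called 3 genes in the second of them, none of the 10. DESeq2 called 17, 5 and 0 genes. The 3 tests share libraries.

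The 77 other replication genes had no called member in any comparison of genotypes. By sign, 53 of 77 were higher in E11.5 mutants, 62 in E14.5 mutants, 39 in 12-hour and 55 in 24-hour mutant cultures, with median log2 fold changes of 0.060, 0.23, 0.0015 and 0.22. Over all genes tested, 7087 of 13406, 7027 of 13583, 6404 of 13389 and 6421 of 13300 were higher in the mutants of these settings. Without overlap, 10 of the 77 lay higher and 2 lower at E11.5 (7.16% and 6.11% of all genes), 22 and 0 at E14.5 (7.02% and 6.71%), 2 and 2 at 12 hours (5.09% and 5.94%) and 20 and 1 at 24 hours (7.15% and 9.06%). Of 20 G2 and M phase genes 15 were higher in E11.5 mutants, 16 in E14.5 mutants, and 18 and 18 in the 12-hour and 24-hour mutant cultures, with none called by limma. Their median log2 fold changes were 0.057, 0.23, 0.34 and 0.29 in the same order. The genes of a list share their libraries and are not independent observations.

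Summed over the 10 genes, the level was 12777, 13335 and 12782 in E11.5 mutants and 11664, 10881 and 11738 in controls. It was 6888, 6819.7 and 6574 in E14.5 mutants and 5059, 5373 and 4888 in controls, and at 12 hours 4569, 5875 and 4774 in mutants and 5153, 5964 and 3844 in controls. At 24 hours it was 5018, 5596 and 5431 in mutants and 3345, 4759 and 4041 in controls. Mutant and control libraries did not overlap at E11.5, at E14.5 and at 24 hours, and overlapped at 12 hours. Of all single genes tested, 7.16%, 7.02% and 7.15% lay higher in mutants without overlap at these 3 points, and 6.11%, 6.71% and 9.06% lower. These are shares of single genes, and no sums of 10 other genes were compared. The sum itself was not tested. *Mcm7* made up 40.2% to 65.8% of the sum. Without it the sum still did not overlap at these 3 points, with 2774, 2996 and 3559.6 in E14.5 mutants and 2529, 2748 and 2472 in controls.

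Postmitotic neuron markers were lower in sum in mutants at E14.5 and at 24 hours. Their 12 genes summed to 41561 to 42950.3 in E14.5 mutants and 50185 to 53909.9 in controls, and to 40061 to 47042 in 24-hour mutants and 50454 to 56969 in controls. Of the 12, 11 were lower in E14.5 mutants and 12 in 24-hour mutants, where *Neurod6*, a transcription factor of cortical excitatory neurons, passed the threshold at both points (-0.87 and -0.71, adjusted p = 0.0481 and 0.0425, limma). Apical progenitor markers summed to 10841 to 12493 in E14.5 mutants and 10450.1 to 11121 in controls, with overlap, and to 12722 to 14013 and 9880.4 to 11267 at 24 hours, without overlap. Microglial markers summed to 826 to 999 in E14.5 mutants and 440.0 to 507 in controls. The part of cell composition in the values of the 10 genes was not tested.

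**Figure D5:**
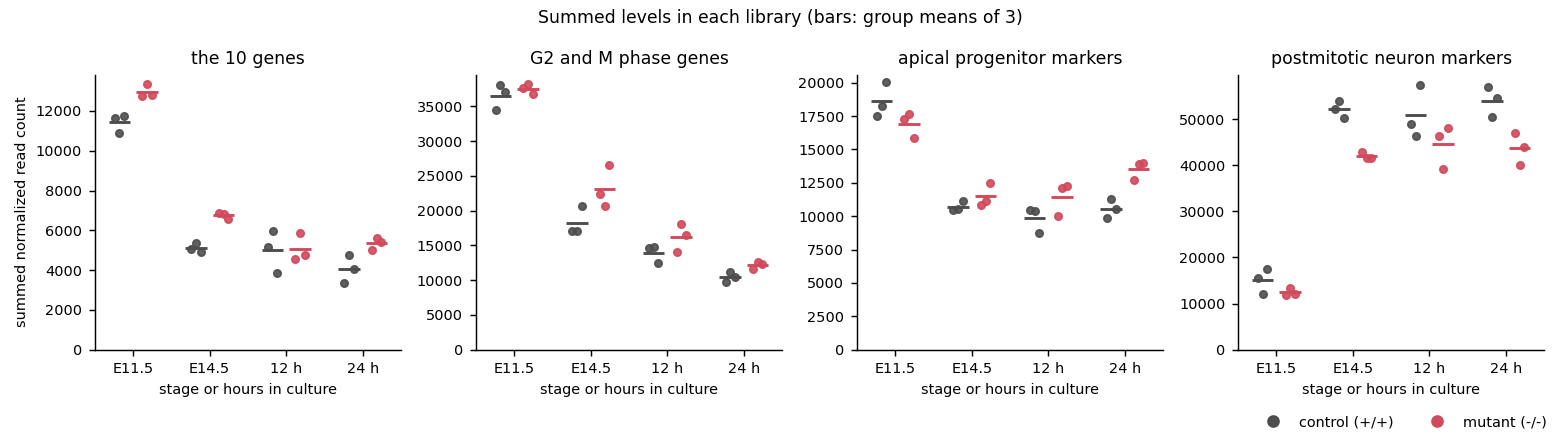
Summed normalized read count (vertical axes, from 0) of the 10 genes, of 20 G2 and M phase genes, of 10 apical progenitor markers and of 12 postmitotic neuron markers in each library (controls grey, mutants red, bars at the mean of 3). The first and second panels are highest at E11.5, the fourth lowest, and at E14.5 and 24 hours mutants lie above controls in the first panel and below them in the fourth. At E11.5 mutants also lie above controls in the first panel but overlap with them in the fourth, and at 12 hours the genotypes overlap in both.

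The genes whose levels followed the mean of the 10 most closely over the 24 libraries, as the Pearson correlation of log2(value + 1) with the mean z score of the 10, were *Nectin3* (0.976), *Zfp36l1* (0.974), *Tpx2* (0.972), *Zcchc3* (0.970), *Ccnb1* (0.967), *Dlk1* (0.967), *Gnai2* (0.966), *Ncapd2* (0.966), *Wnt8b* (0.965) and *Gng5* (0.964), against a median of 0.0736 over 13668 genes. The E11.5 libraries stand above all others for the 10 genes, and 18 of the 24 libraries share 6 embryos. *Tpx2*, a spindle assembly factor, and *Ccnb1*, cyclin B1, act in mitosis, and none of the 77 other replication genes was among the 10 closest. When each library was expressed as its deviation from the mean of its own group, the closest were *Tmem123* (0.797), *Efhd2* (0.797), *Zfp626* (0.757), *Cdc45* (0.731), *Pgam5* (0.724), *Phf6* (0.718), *Qk* (0.703), *Tpbg* (0.701), *Elavl1* (0.691) and *Pcbp2* (0.685). *Cdc45*, a partner of the MCM ring in the active helicase, was the 1 replication gene among them. The median over all genes was -0.0427, and no gene was in both sets of 10.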

How the data were processed

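Per the labels and the study's methods, total RNA was made into QuantSeq 3′ FWD libraries from oligo(dT) priming, aligned to GRCm38 with TopHat2 2.0.10 (Bowtie 1.0.0), handled with SAMtools 0.1.19 and counted by strand per GENCODE vM20 gene with HTSeq 0.6.1. The submitters' processing notes also name FastQC 0.11.7 and DESeq2. The authors deposited 1 table of normalized read counts (unit: signal), in which the reads of a library are divided by 1 size factor. Every one of the 484666 nonzero values equalled a whole number of reads times its library's value per read (within 1e-06 reads), so whole reads were recovered for alternatives that need counts; in E11.5 control 1, 1 read is worth 1.0077. No 2 libraries were identical. QuantSeq reads the 3′ end, so levels depend on transcript ends and not on length.

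The main test was limma 3.58.1 with an intensity trend (R 4.3.3) on log2(value + 1), two-sided, over genes averaging 10 or more in the fitted libraries, with Benjamini-Hochberg adjustment over all of them and a threshold of 0.05. Fold changes are on that scale and understate those of low genes. Genotypes were compared within each of 4 settings and over 12 cortices with age as a term; stages were compared with genotype as a term. The design was tested on simulated data. Replicates carry separate sample numbers in their titles and were taken as separate embryos. E14.5 cortices and both cultures carry the same numbers (mutants 1, 2 and 6, controls 3, 4 and 5). The pairing by embryo is a reading of these numbers, as the titles do not name embryos. The deviations of same-numbered libraries from their group means correlated at -0.114 to 0.235 over 18 pairs. Embryos of E11.5 were numbered in accession order. The label of the E14.5 cortex of mutant 6 gives another age in its description than in its title, and the title was used. Promoter windows were from RefSeq and positions from GENCODE vM21, as the vM20 annotation was not used here.

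The 10 genes, the 77 other replication genes and the cell type lists were chosen with earlier results of these data known. Named beside the 10 genes are *Cep135* and *Cdkn1a*, replication genes past the threshold in a genotype comparison (none), up to 3 with the largest rise and 3 with the largest fall between stages, and the 10 genes most like the 10 by each of 2 correlations. Counting intervals cover counting error only, since reads had no molecular identifiers. Alternatives were other scalings, pseudocounts of 0.1 and 5, no filter and a mean of at least 50, edgeR 4.0.16 (quasi-likelihood) and DESeq2 1.42.0 on recovered counts, terms for sex, title prefix and embryo, 1 fit of all libraries, each genotype alone, and each library left out.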

Additional observations from a re-analysis of the deposited data

How the results depend on the processing

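Of 1420 member values under the alternatives, 1356 kept their sign and their side of the threshold, and all 240 of those between the ages did. Precision is limited by 3 libraries a side and, for *Gmnn*, by as few as 20 reads. Genes called over the whole table between genotypes in E11.5 and E14.5 cortices and in 12-hour and 24-hour cultures (2, 10, 0 and 36) were 17, 31, 9 and 140 with no filter on low values, 34, 64, 9 and 182 with DESeq2 and 4, 1, 182 and 4 with a term for embryo sex. At E11.5 they were also 1 with a mean of at least 50, 0 with quantile normalization, 0 with library totals, 1 with edgeR, 8 in 1 fit of all 24 libraries and 0 with the title prefix as a block. At 12 hours they were also 1 with a pseudocount of 5, 1 with quantile normalization, 1 with library totals and 29 in the fit of all libraries. Over the 12 cortices (19) they were 98 with DESeq2, 1 of them among the 10 genes, 8 in the fit of all libraries and 7 with a term for sex. Between 12-hour cultures and E14.5 cortices (4107 genes, 5 of the 10) they were 2169 and 3 in controls alone and 1219 and 2 in mutants alone. Between culture times (39) they were 160 with DESeq2, 159 in the fit of all libraries, 2 in controls alone, 1 in mutants alone and 104 with the embryo as a replicate block. The interactions (0) gave 17 for age and 5 for 12-hour culture with DESeq2, and for 12-hour culture 1 with edgeR and 3 with the replicate block. Among the 10 genes the block changed no call but that of *Cdt1*. The causes were not tested.

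Leaving out 1 library gave 0 (without control 2) to 8 (without mutant 2) called genes at E11.5, 1 (without control 4) to 74 (without control 5) at E14.5, 0 to 7 (without mutant 6) at 12 hours and 7 (without control 3) to 46 (without control 4) at 24 hours, none of them among the 10. It gave 6 to 35 over the 12 cortices (without E14.5 mutant 2 and without E14.5 mutant 6), 6741 to 7204 between the ages with 10 of the 10 each time, 3197 to 4706 between 12-hour cultures and cortices with 4 to 6 of the 10, and 19 (without 24-hour control 4 or mutant 1) to 44 (without 12-hour mutant 1) between culture times. Interactions gave 0 to 1 for age, 0 to 1 for 12-hour culture and 0 to 2 for culture time.

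Changes of sign were all in differences that had not passed. *Mcm4* turned at E11.5 (0.0055) to -0.0091 with TMM, -0.020 with quantile, -0.017 with library totals and -0.037 with sex, at 24 hours (-0.0030) to 0.020 with TMM, 0.062 with library totals and 0.12 with sex, and over 12 cortices (0.0048) to -0.016 with TMM, -0.0070 with quantile and -0.0073 with library totals. At E14.5 *Mcm4* turned to -0.034 and *Gmnn* to -0.011 with TMM, and *Rrm2* to -0.10 with sex. At 12 hours with sex *Mcm3* turned to 0.10, *Mcm4* to 0.44, *Mcm7* to -0.21 and *Gmnn* to -0.12. Between 12-hour cultures and cortices *Mcm3* turned to 0.11 and *Mcm7* to 0.16 in controls alone. With 1 library left out the ranges that crossed 0 were, at E11.5, -0.034 to 0.12 for *Mcm3* and -0.12 to 0.11 for *Mcm4*; at E14.5, -0.12 to 0.26 for *Mcm2*, -0.14 to 0.14 for *Mcm4*, -0.037 to 0.20 for *Cdt1*, -0.23 to 0.18 for *Gmnn* and -0.26 to 0.38 for *Rrm2*. At 12 hours they were -0.21 to 0.12 for *Mcm3*, -0.23 to 0.27 for *Mcm7*, -0.10 to 0.25 for *Pcna* and -0.013 to 0.27 for *Gmnn*, and at 24 hours -0.17 to 0.13 for *Mcm4* and -0.32 to 0.034 for *Cdt1*. Over 12 cortices they were -0.057 to 0.066 for *Mcm4*, -0.14 to 0.065 for *Pcna* and -0.042 to 0.24 for *Rrm2*, and between 12-hour cultures and cortices -0.19 to 0.030 for *Mcm7*. *Cdt1* between 12-hour cultures and cortices was also past the threshold no more with quantile normalization (adjusted p = 0.0536, limma). Over all genes, library totals moved the median of that comparison to -0.13 and the share of calls that were higher from 46.7% to 37.7%, and at 24 hours that share from 44.4% to 63.9%.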
